A study of Mus musculus with 8 samples.

Results

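Genes that mark the blood vessels, lymphatic vessels and pericytes of embryonic skin were compared in GR-null embryos, which lack the glucocorticoid receptor, and wild-type embryos. A list of 36 genes was taken from what is known of these cells, and 35 of them had a probe set annotated to that gene alone, out of 18193 genes in all. These were 25 blood vessel genes, 6 lymphatic genes and 4 pericyte genes. The lymphatic chemokine gene Ccl21a had no probe set of its own and was left out. A gene was read at its brightest probe set, which is a group of short probes on the array, chosen by the highest mean over all arrays.

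RNA from dorsal skin was hybridised to 8 Affymetrix mouse genome arrays. The 4 GR-null arrays (genotype GR-/-; label numbers 5, 17, 25 and 26) and the 4 wild-type arrays (GR+/+; label numbers 4, 6, 28 and 29) came from littermates of the B6D2/F1 strain at embryonic day 18.5, shortly before birth. The labels give neither the allele nor the litter, and they do not state whether any arrays share an embryo, so the p-values measure the spread between these samples, which may be technical. A GR-/- genotype concerns every cell of the embryo, so the comparison does not separate a loss of the receptor in vessels from a loss elsewhere.

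Blood and lymphatic vessels of the skin are lined by endothelial cells, and small blood vessels are wrapped by pericytes. Vascular endothelial growth factors act on VEGF receptors to drive vessel growth, and angiopoietins act on the receptor TEK to set how stable a vessel is. Lymphatic endothelium arises from veins under the transcription factor PROX1 and depends on VEGF-C and its receptor FLT4. The glucocorticoid receptor, encoded by Nr3c1, is a hormone-activated transcription factor present in most cell types, endothelium included.

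Values are log2 expression, so a difference of 1 is a change of 2-fold. The arrays' own medians lay between 6.46 and 6.52. The skin genes Krt5, the keratin of the basal epidermis, and Col1a1, the main collagen of the dermis, read at least 12.68 and 13.89 on every array. Of the 35 vascular genes, 33 read above the array median on all 8 arrays, and 1, Prox1, read below it on all 8. Nr3c1 fell by 0.84 ± 0.11 log2 at its brightest probe set in GR-null skin (SE, n = 4 per group; limma adjusted p = 0.0133). Of its 5 other probe sets, 2 fell, at -1.86 and -2.70, and 3 did not pass the threshold, at 0.27, 0.04 and 0.35. One array of each genotype, GR-null 17 and wild-type 6, stood apart in the mean of 3 Y-linked transcripts, with 3.83 in both against 8.29 to 8.99 in the other 6 arrays. GR-null 17 also stood apart from the other GR-null arrays in skeletal muscle genes. The mean of 26 of these was 11.16 in GR-null 17 and 10.29 to 10.59 in the other 3 GR-null arrays, against 11.17 to 11.30 in wild-type arrays. Where a call changed without GR-null 17 or wild-type 6, a value without that array is given beside the result. Other fold changes moved as well, and those that changed sign are listed in the closing section.

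In GR-null skin 2 of the 35 vascular genes fell, 0 rose and 33 did not pass the threshold (limma, Benjamini-Hochberg adjusted p below 0.05 over all 18193 genes). The genes that fell were Vwf, which encodes the clotting factor von Willebrand factor made by endothelium, and Lyve1, the hyaluronan receptor used as a marker of lymphatic endothelium. They are 5.71% of the list, against 2.96% of all genes past that threshold in either direction, 1.56% as lower and 1.4% as higher in GR-null skin. The log2 fold change, GR-null minus wild-type, was below 0 for 24 of all 35, with a median of -0.15, against 51.3% of all genes and a median of 0.00. At an unadjusted p below 0.05, which is not a call here, 12 of the 35 were lower and 3 were higher, against 11.1% and 10.5% of all genes. The groups did not overlap for 5 genes that were lower in GR-null skin and 1 that was higher, against 6.3% and 6.69% of all genes, or 13% in either direction.

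**Figure D1:**
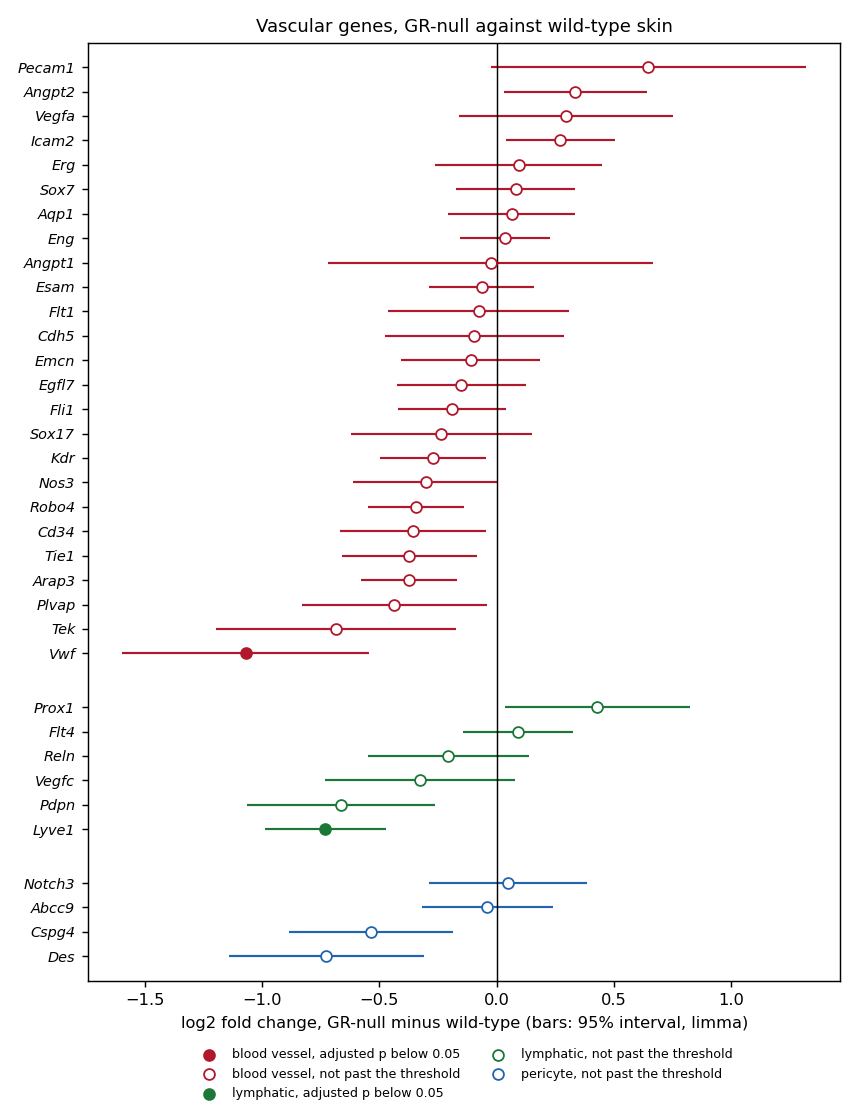
Log2 fold change (horizontal axis, GR-null minus wild-type) of the 35 vascular genes, with 95% intervals from limma, ordered within the blood vessel, lymphatic and pericyte groups. Vwf at -1.07 and Lyve1 at -0.73 are the filled points, which mark an adjusted p below 0.05.

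The products of the endothelium that act in clotting, adhesion and permeability did not move as one. Vwf read 7.21, 8.06, 7.24 and 6.80 in GR-null 5, 17, 25 and 26, against 8.39, 8.33, 8.25 and 8.63 in wild-type 4, 6, 28 and 29. All 4 GR-null values lay below all wild-type values, with GR-null 17 closest to them. Vwf was lower by a log2 difference of -1.07 ± 0.23 (SE, 4 arrays a group; 2.1-fold, limma adjusted p = 0.0466). The call held without GR-null 17 (-1.32, adjusted p = 0.00337) and ended without any 1 of the other 7 arrays, with adjusted p between 0.0756 and 0.139. With the mean of skeletal muscle genes as a covariate, Vwf was at -0.37 with no call (limma adjusted p = 0.609), in a fit that leaned on GR-null 17. In bulk skin, fewer endothelial cells and less Vwf RNA per cell cannot be told apart.

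Vwf is also made by megakaryocytes, so platelet genes were read beside it. Of 10 measured platelet markers, 1 fell, 0 rose and 9 did not pass the threshold, against 1.56% of all genes called lower and 1.4% called higher. The mean of the list was 6.39 to 6.42 in GR-null arrays, against 6.47 to 6.72 in wild-type arrays. By sign, 6 of the 10 were lower and 4 higher. The list mean lay near the array medians, which ran from 6.46 to 6.52, and differences of dim transcripts are compressed. The median log2 fold change was -0.01. The marker that fell, Itgb3, encodes an integrin subunit that endothelium can make too, and it fell by 1.22 ± 0.20 log2 (limma adjusted p = 0.0203). Pf4 encodes a platelet chemokine and was picked out with its values known. Its log2 fold change was -0.43 ± 0.10 (limma adjusted p = 0.0537). Pf4 read 10.28 to 10.56 in GR-null arrays, against 10.70 to 11.05 in wild-type arrays, far above the list mean. Which cells made it was not tested. The part of platelets in the Vwf result was not tested.

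Pecam1, the adhesion molecule found on all endothelium and on platelets, read 8.45, 8.09, 8.65 and 8.87 in GR-null arrays, against 7.50, 8.80, 7.41 and 7.77 in wild-type arrays. Wild-type 6 lay inside the GR-null range and the other 3 wild-type arrays below it. The log2 fold change was 0.65 ± 0.30 (limma adjusted p = 0.248), and without wild-type 6 it was 0.96 with adjusted p = 0.0475. In the 3 arrays per group with high Y-linked transcripts, without GR-null 17 and wild-type 6, Pecam1 was at 1.10 (limma adjusted p = 0.00849). Icam2, an adhesion molecule for leukocytes, read 8.90 to 8.98 in GR-null arrays, against 8.43 to 8.89 in wild-type arrays, and was the 1 vascular gene with all GR-null values above all wild-type values (log2 fold change 0.27, limma adjusted p = 0.171).

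None of the junction genes passed the threshold. Cdh5, the cadherin that joins endothelial cells, read 6.996 to 7.38 in GR-null arrays, against 6.99 to 7.76 in wild-type arrays, a difference of -0.09 log2 with a 95% interval of -0.48 to 0.29, while its dimmer probe set was at 0.77 (limma adjusted p = 0.106). Esam, a tight junction adhesion molecule, differed by -0.06 (95% interval -0.29 to 0.16) and the sialomucin Emcn by -0.11 (-0.41 to 0.18).

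Plvap forms the diaphragms of endothelial pores. It read 9.11, 9.85, 9.45 and 9.10 in GR-null arrays, against 9.93, 9.91, 9.52 and 9.89 in wild-type arrays. GR-null 17 lay among the wild-type values and wild-type 28 next to GR-null 25. Plvap had a log2 fold change of -0.44 (limma adjusted p = 0.192), and without GR-null 17 it was -0.59 with adjusted p = 0.0332. Cd34, a sialomucin that hair follicle and dermal cells make as well, differed by -0.36 (limma adjusted p = 0.178). Nos3, the endothelial nitric oxide synthase, differed by -0.30 (95% interval -0.61 to 0.01). The water channel Aqp1, which red cells also carry, differed by 0.06 (-0.21 to 0.34).

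Both receptors of the TIE family had lower means in GR-null skin, without passing the threshold. Tek, the angiopoietin receptor, read 8.68, 8.48, 7.85 and 7.91 in GR-null arrays, against 9.03, 8.93, 8.44 and 9.26 in wild-type arrays. Only wild-type 28 lay within the GR-null range. The log2 fold change was -0.69 ± 0.23 (limma adjusted p = 0.129). Tie1, its signalling partner, read 7.84, 8.15, 7.64 and 7.61 in GR-null arrays, against 8.11, 8.16, 8.10 and 8.36 in wild-type arrays. GR-null 17 lay among the wild-type values, and the log2 fold change was -0.37 ± 0.13 (limma adjusted p = 0.138). Without GR-null 17, Tie1 was at -0.48 with adjusted p = 0.0247.

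The sequence before the start of these paired receptors is shown for context, over 250 bases (RefSeq, mouse build GRCm38.p6, 5′ to 3′ on the strand of the gene). Capitals mark AGAACA, the half-site bound by the glucocorticoid receptor, and CGGAAG, a site of ETS factors such as ERG and FLI1, on either strand. Tek lies on the plus strand at chr4:94739039-94739288 and Tie1 on the minus strand at chr4:118489850-118490099.
Tek: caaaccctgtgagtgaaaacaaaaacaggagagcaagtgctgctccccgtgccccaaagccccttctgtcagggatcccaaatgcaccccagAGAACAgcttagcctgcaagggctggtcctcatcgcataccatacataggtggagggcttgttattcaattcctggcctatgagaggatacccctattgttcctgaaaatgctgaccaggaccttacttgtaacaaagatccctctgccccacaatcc
Tie1: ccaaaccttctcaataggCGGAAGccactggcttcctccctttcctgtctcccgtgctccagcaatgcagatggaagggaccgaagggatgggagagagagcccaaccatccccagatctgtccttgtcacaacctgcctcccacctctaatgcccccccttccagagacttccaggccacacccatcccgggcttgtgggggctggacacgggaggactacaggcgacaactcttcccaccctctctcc

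Tek held 1 glucocorticoid receptor half-site and Tie1 held 1 ETS site. Of 21 measured vascular genes with such a window, read at the first listed start of each gene, 1 held the half-site, against 16.2% of 27025 genes. A later listed start of Egfl7 held it as well. The ETS site was found in 2 of the 21, Tie1 and Reln, against 13.8% of all. The full palindrome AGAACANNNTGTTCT was found in 0 of the 21 and in 1 of all 27025 genes, so it is too rare for that 0 to be informative. A match is a stretch of letters and not a shown binding site. The called genes Vwf and Lyve1 were not among the windows used here.

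None of the VEGF receptors passed the threshold at the brightest probe set. Kdr, the main receptor for VEGF-A, read 8.9996, 9.02, 9.16 and 8.90 in GR-null arrays, against 9.33, 9.45, 9.06 and 9.34 in wild-type arrays. Wild-type 28 lay inside the GR-null range, and the log2 fold change was -0.27 ± 0.10 (limma adjusted p = 0.161). Flt1, which binds VEGF-A and in its soluble form holds it away from Kdr, differed by -0.08 (95% interval -0.46 to 0.31). Eng, a co-receptor for the TGF-β family, differed by 0.04 (-0.15 to 0.23).

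Robo4 and Arap3 did not pass the threshold, and their groups did not overlap. Robo4, an endothelial receptor that limits vessel leakage, read 7.16, 7.04, 7.27 and 7.25 in GR-null arrays, against 7.54, 7.52, 7.36 and 7.68 in wild-type arrays. Arap3, a regulator of small GTPases that is needed for vessel sprouting in the mouse, read 8.63, 8.65, 8.57 and 8.62 in GR-null arrays, against 9.05, 8.93, 8.81 and 9.19 in wild-type arrays. For both genes all GR-null values lay below all wild-type values, including GR-null 17. The log2 fold change was -0.34 ± 0.09 for Robo4 (limma adjusted p = 0.0749) and -0.38 ± 0.09 for Arap3 (limma adjusted p = 0.0612). Arap3 depended on the probe set: its middle one gave -0.08 (95% interval -0.25 to 0.09).

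**Figure D2:**
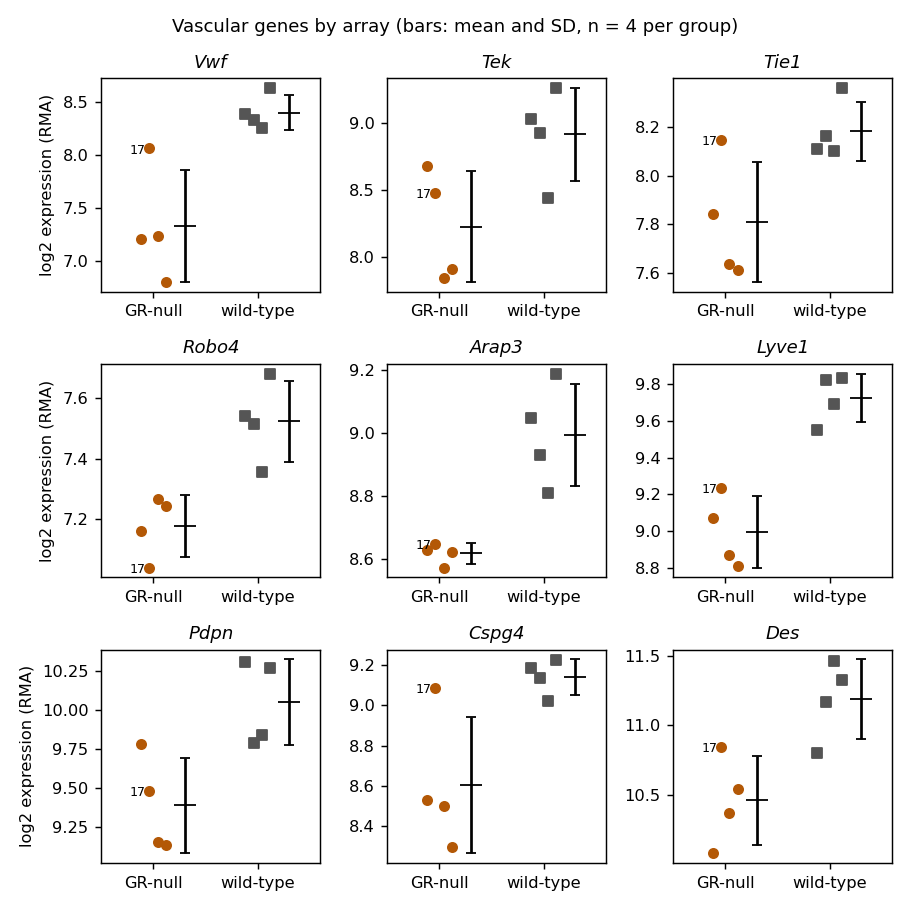
Log2 expression of 9 vascular genes in each array, GR-null arrays left and wild-type arrays right, with the mean and SD of each group; the number 17 marks GR-null 17. For Vwf, Robo4, Arap3, Lyve1 and Pdpn the groups do not overlap. For Tek, Tie1, Cspg4 and Des the values of GR-null 17 reach those of wild-type arrays.

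None of the 4 endothelial transcription factors passed the threshold. The log2 fold changes were 0.09 for Erg (95% interval -0.26 to 0.45), -0.19 for Fli1 (-0.42 to 0.04), 0.08 for Sox7 (-0.17 to 0.33) and -0.24 for Sox17 (-0.62 to 0.15), with limma adjusted p between 0.324 and 0.799. The other probe set of Sox17 was at 0.35. Egfl7, a matrix protein secreted by endothelium, differed by -0.15 (-0.43 to 0.12).

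None of the ligands passed the threshold. Angpt2, the angiopoietin made by activated endothelium that can oppose signalling through TEK, read 7.40, 7.94, 7.91 and 7.84 in GR-null arrays, against 7.64, 7.24, 7.43 and 7.44 in wild-type arrays. GR-null 5 lay among the wild-type values, and the log2 fold change was 0.33 ± 0.14 (limma adjusted p = 0.195). Vegfa, which keratinocytes supply in skin, read 8.89, 8.80, 9.19 and 9.23 in GR-null arrays, against 8.82, 8.11, 8.96 and 9.03 in wild-type arrays, a log2 fold change of 0.30 ± 0.20 (limma adjusted p = 0.453). Wild-type 6 was the lowest array, and without it Vegfa was at 0.089 (adjusted p = 0.757). Angpt1, which activates TEK, ranged from 5.50 to 6.64 in GR-null arrays, against 5.38 to 6.34 in wild-type arrays. Its difference of -0.02 had a 95% interval of -0.72 to 0.67, and it was at -0.45 in the 3 arrays per group without GR-null 17 and wild-type 6 (limma adjusted p = 0.226).

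In the lymphatic group, Lyve1 stood out. It read 9.07, 9.24, 8.87 and 8.81 in GR-null arrays, against 9.55, 9.82, 9.69 and 9.83 in wild-type arrays. All GR-null arrays were below all wild-type arrays, with GR-null 17 the highest of the GR-null values. Lyve1 was lower, at a log2 difference of -0.73 ± 0.11 (SE, 4 arrays a group; 1.66-fold, limma adjusted p = 0.0176). Its other probe set gave 8.96, 9.03, 8.75 and 8.26 in GR-null arrays, against 9.45, 9.83, 9.47 and 9.58 in wild-type arrays. There Lyve1 fell by 0.83 ± 0.17 log2 (limma adjusted p = 0.0362 over all probe sets). The call at the brighter probe set ended without wild-type 28 (adjusted p = 0.0516), wild-type 29 (0.0605) or GR-null 25 (0.071) and held in the other 5 fits that left out 1 array.

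Lyve1 is also carried by a class of tissue macrophages, so macrophage genes were read beside it. Of 15 measured macrophage markers, 1 fell, 0 rose and 14 did not pass the threshold, against 1.56% of all genes called lower and 1.4% called higher. The mean of the list was 7.74 to 8.25 in GR-null arrays, against 7.93 to 8.54 in wild-type arrays. By sign, 8 of the 15 were lower and 7 higher, with a median log2 fold change of -0.01. The marker that fell was Cd163, the haemoglobin scavenger receptor of macrophages. It read 5.89, 6.91, 5.57 and 5.44 in GR-null arrays, against 7.94, 7.91, 8.28 and 8.22 in wild-type arrays. Cd163 fell by 2.13 ± 0.29 log2 (limma adjusted p = 0.0112). The macrophage receptors Mrc1 and Csf1r were picked out with their values known, so they do not stand for the list. Mrc1 differed by -0.09 log2 (95% interval -0.42 to 0.23) and Csf1r by 0.08 (-0.28 to 0.44). The part of macrophages in the Lyve1 result was not tested.

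Pdpn, the podoplanin of lymphatic endothelium that basal keratinocytes and fibroblasts can make too, read 9.78, 9.48, 9.16 and 9.14 in GR-null arrays, against 10.31, 9.79, 9.84 and 10.27 in wild-type arrays. All GR-null values lay below all wild-type values, but GR-null 5 came close to wild-type 6. The log2 fold change was -0.66 ± 0.18 (limma adjusted p = 0.077). Of 10 measured basal keratinocyte genes, 3 rose, 0 fell and 7 did not pass the threshold. By sign, 7 were higher and 3 lower. Of all genes, 1.4% were called higher and 1.56% lower. The list mean was 10.75 to 11.00 in GR-null arrays, against 10.43 to 10.78 in wild-type arrays. The part of keratinocytes in the Pdpn values was not tested.

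The lymphatic fate factor Prox1 was dim. It read 4.74, 5.43, 4.95 and 5.47 in GR-null arrays, against 4.96, 4.56, 4.76 and 4.60 in wild-type arrays, and its log2 fold change of 0.43 ± 0.17 (limma adjusted p = 0.197) was opposite to those of Lyve1 and Pdpn. Flt4, the VEGF-C receptor, differed by 0.09 (95% interval -0.14 to 0.33). Its ligand Vegfc read 7.70, 8.12, 7.38 and 7.33 in GR-null arrays, against 8.08, 7.66, 8.07 and 8.01 in wild-type arrays, with a log2 fold change of -0.33 (limma adjusted p = 0.335). Vegfc was at -0.49 without GR-null 17 (adjusted p = 0.0614) and at -0.59, with a call, in the 3 arrays per group without GR-null 17 and wild-type 6 (adjusted p = 0.0241). Its other probe sets were at 0.28 and 0.08. Reln, a matrix protein secreted by lymphatic endothelium, differed by -0.21 (95% interval -0.55 to 0.14).

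The 4 pericyte genes fell into 2 pairs, and 0 of the 4 passed the threshold. Cspg4, the NG2 proteoglycan of pericytes, read 8.53, 9.09, 8.50 and 8.30 in GR-null arrays, against 9.18, 9.14, 9.02 and 9.22 in wild-type arrays. GR-null 17 lay among the wild-type values and the other 3 GR-null arrays below all of them. The log2 fold change was -0.54 ± 0.15 (limma adjusted p = 0.0904), and without GR-null 17 it was -0.70 with adjusted p = 0.00661. Des, the intermediate filament of muscle and of pericytes, read 10.08, 10.85, 10.37 and 10.54 in GR-null arrays, against 10.80, 11.17, 11.46 and 11.32 in wild-type arrays. GR-null 17 exceeded wild-type 4, and the log2 fold change was -0.73 ± 0.18 (limma adjusted p = 0.0674), or -0.86 with adjusted p = 0.0225 without GR-null 17. The other probe set was at -0.05 for Des and -0.24 for Cspg4.

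The fold changes of the other pair lay near 0 at the brightest probe set and above 0 at the others. Notch3, the Notch receptor of vascular smooth muscle and pericytes, read 10.36 to 10.59 in GR-null arrays, against 9.95 to 10.69 in wild-type arrays (difference 0.05 log2, 95% interval -0.29 to 0.39). Abcc9, a subunit of the potassium channel of pericytes, differed by -0.04 (-0.32 to 0.24). The other probe set of Notch3 was at 0.35 (-0.09 to 0.80), and those of Abcc9 were at 0.29 (0.00 to 0.57) and 0.72 (0.09 to 1.34), without a call.

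**Figure D3:**
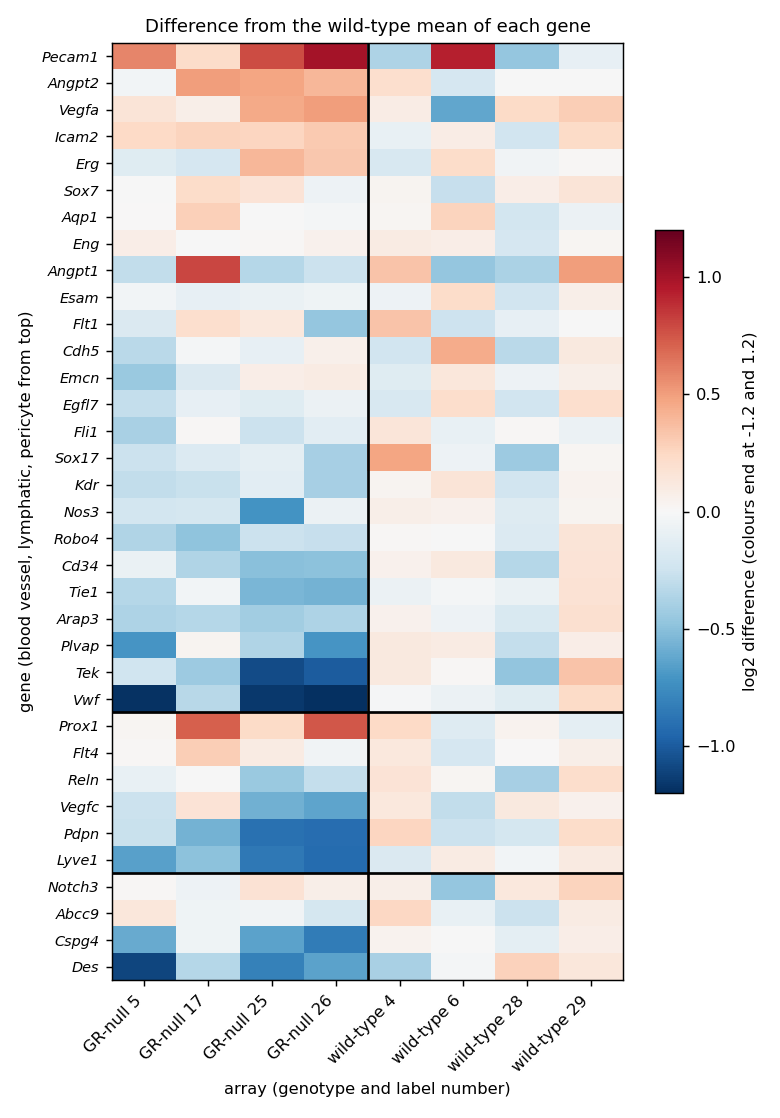
Difference in log2 expression of each vascular gene (rows) in each array (columns, GR-null left) from the wild-type mean of that gene; blue is lower and red is higher. Vwf, Tek, Lyve1 and Pdpn are blue across the GR-null arrays, paler in GR-null 17 for Vwf and Lyve1, while Pecam1 is red in the GR-null arrays and in wild-type 6.

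Averaged over the group, the 25 blood vessel genes were at -0.20, -0.02, -0.14 and -0.17 log2 from the wild-type mean in GR-null 5, 17, 25 and 26, against 0.03, 0.04, -0.19 and 0.12 in wild-type 4, 6, 28 and 29. Wild-type 28 thus lay as low as the GR-null arrays. The 6 lymphatic genes were at -0.21, 0.02, -0.41 and -0.34 in GR-null arrays, against 0.12, -0.13, -0.08 and 0.09 in wild-type arrays. The 4 pericyte genes were at -0.39, -0.13, -0.33 and -0.41 in GR-null arrays, against -0.01, -0.15, 0.00 and 0.15 in wild-type arrays. In all 3 groups GR-null 17 was the GR-null array nearest to the wild-type mean.

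Skeletal muscle genes moved with several of these results. Of 26 measured muscle markers, 3 fell, 0 rose and 23 did not pass the threshold, against 1.56% of all genes called lower and 1.4% called higher. The median log2 fold change of the markers was -0.51. With the mean of this list as a covariate, Vwf was at -0.37 (limma adjusted p = 0.609), Cspg4 at -0.10 (0.886), Des at -0.26 (0.727) and Tie1 at -0.08 (0.908). Lyve1 kept more of its difference at -0.54, without a call (limma adjusted p = 0.303). Robo4 at -0.42 (0.341), Tek at -0.59 (0.62) and Pdpn at -0.69 (0.444) kept fold changes close to those without the covariate, also without a call. In that fit 80 of all genes were called. GR-null 17 was the 1 GR-null array near the wild-type muscle level. Apart from it, the muscle level ran with genotype, so this fit leaned on where GR-null 17 lay for each gene. The SE was 0.38 for Tek and 0.30 for Pdpn, against 0.23 and 0.18 without the covariate. The part of muscle in these results was not tested.

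**Figure D4:**
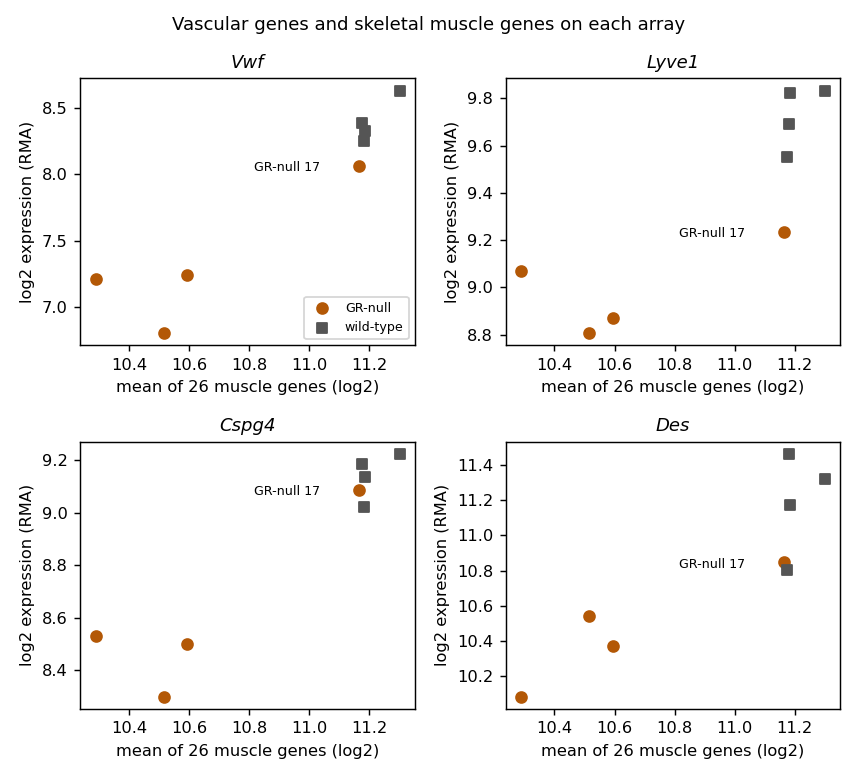
Log2 expression of Vwf, Lyve1, Cspg4 and Des (vertical axes) against the mean of 26 skeletal muscle genes (horizontal axes, log2) in each array. The 3 GR-null arrays at 10.29 to 10.59 on the muscle axis are low in all 4 genes. GR-null 17, at 11.16, lies within the range of the wild-type arrays for Cspg4 and Des and below it for Vwf and Lyve1.

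Many of these genes are read by more than 1 probe set, which can cover different parts or isoforms of a transcript. The 35 genes had 64 probe sets. For 11 of the 21 genes with several, the probe sets differed in the sign of the fold change. Of the 64, 4 fell and 2 rose (limma adjusted p below 0.05 over all 45037 probe sets), which is 6.25% and 3.12%, against 1.63% and 2.22% of all probe sets. Those that fell were the probe set of Vwf, both of Lyve1 and a dim one of Arap3, and those that rose were dimmer ones of Flt4 and Prox1.

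The dim probe set of Arap3 read 4.92, 5.00, 4.88 and 5.04 in GR-null arrays, against 6.09, 5.73, 5.43 and 5.56 in wild-type arrays, and fell by 0.74 ± 0.13 log2 (limma adjusted p = 0.0272). The dimmer probe set of Flt4 read 6.76, 6.96, 6.90 and 7.06 in GR-null arrays, against 6.45, 6.35, 6.30 and 6.32 in wild-type arrays, and rose by 0.56 ± 0.08 (limma adjusted p = 0.0178), while the brightest was at 0.09. The dimmest probe set of Prox1 rose by 0.59 ± 0.13 (limma adjusted p = 0.0458) at readings of 3.93 to 4.49 in GR-null arrays, against 3.54 to 3.88 in wild-type arrays, near the low end of the scale.

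Flt1 and Vegfa also read differently by probe set. Of the 4 probe sets of Flt1, 1 had all GR-null values lower, at -0.61 ± 0.18 (limma adjusted p = 0.0836). In 1 other, all GR-null values were higher, at 0.41 ± 0.12 (limma adjusted p = 0.0833). Neither passed the threshold. Read at the brightest probe set, 13% of all genes had groups that did not overlap, and the share over all probe sets was not computed. The second probe set of Vegfa read 7.62, 7.60, 8.19 and 8.30 in GR-null arrays, against 6.88, 7.23, 7.17 and 7.38 in wild-type arrays. All GR-null values were higher there, with a log2 fold change of 0.76 ± 0.18, without a call (limma adjusted p = 0.0532). Which part of each transcript a probe set covers was not used here.

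**Figure D5:**
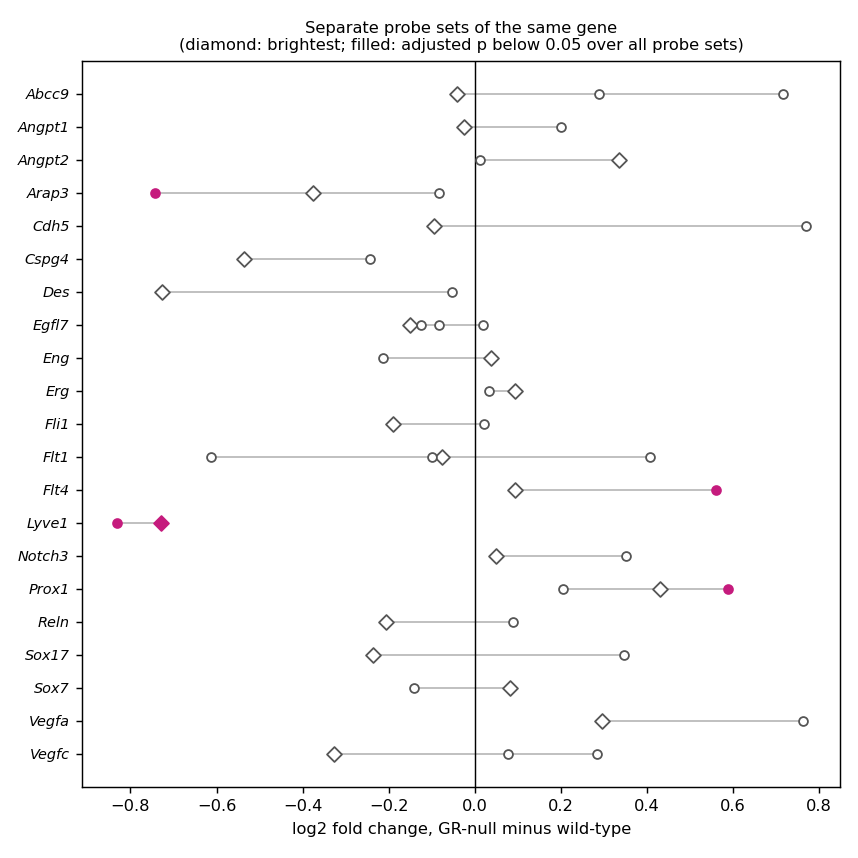
Log2 fold change (GR-null minus wild-type) at every probe set of the 21 vascular genes with several; diamonds are the brightest probe set and filled points have an adjusted p below 0.05 over all probe sets. Both Lyve1 points lie left of 0, while the points of Flt1 run from -0.61 to 0.41 and those of Cdh5 from -0.09 to 0.77.

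Other genes of the same pathways were read from 6 further lists, against 1.56% of all genes called lower and 1.4% called higher. Of 28 further endothelial genes, 0 passed the threshold (limma; at an unadjusted p below 0.05, 3 were higher and 5 lower), with a median log2 fold change of -0.08. The smallest p-values were those of the transcription factor Sox18, at 0.49 (adjusted p = 0.0628), and the prostaglandin transporter Slco2a1, at -0.54 (adjusted p = 0.0683). Of 25 further genes around VEGF and angiopoietin signalling, 1 rose, 0 fell and 24 did not pass. Svep1, a matrix protein needed for lymphatic vessels in mouse and zebrafish, read 8.24, 8.36, 8.39 and 8.36 in GR-null arrays, against 7.66, 7.90, 7.55 and 7.98 in wild-type arrays. Svep1 rose by 0.56 ± 0.11 log2 (limma adjusted p = 0.0314).

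Of 22 genes of arterial and venous identity and Notch signalling, 1 fell, 0 rose and 21 did not pass. Efnb2, the ephrin of arterial endothelium that is also needed for lymphatic valves, read 10.83, 11.08, 10.73 and 10.71 in GR-null arrays, against 11.30, 11.23, 11.29 and 11.30 in wild-type arrays. Efnb2 fell by 0.45 ± 0.09 log2 (limma adjusted p = 0.0408). Of 19 further lymphatic genes, 2 fell, 0 rose and 17 did not pass: Efnb2 again, and Fat4, a large cadherin of lymphatic valves, which fell by 0.54 ± 0.12 (limma adjusted p = 0.0467).

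Of 25 further mural cell genes, 1 rose, 0 fell and 24 did not pass. Rgs4, a regulator of G protein signalling, rose by 0.50 ± 0.10 log2 (limma adjusted p = 0.0394), at readings of 5.64 to 5.99 in GR-null arrays, against 5.23 to 5.49 in wild-type arrays. Of 10 genes of activated endothelium and leukocyte recruitment, 0 passed the threshold (limma; 3 higher and 0 lower at an unadjusted p below 0.05). The smallest p-values were those of the interleukin-1 receptor Il1r1, at 0.31 (adjusted p = 0.0655), and the chemokine Ccl2, at 0.42 (adjusted p = 0.106).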

How the data were processed

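The deposited values are log2 intensities of probe sets, made by the authors with RMA, per the submitters' processing notes. RMA in general corrects background, quantile normalizes and summarises probes. The version was not given in the sources used here. This step equalises the arrays' distributions, so a shift shared by most genes could not be seen, and it compresses differences of dim transcripts. The number of arrays limits the precision.

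Of 45101 probe sets, 64 controls were left out. Platform annotation gave 34945 probe sets 1 symbol, 932 several and 9160 none. Names of 18032 of 18193 genes were matched in RefSeq (GRCm38.p6). Genotype was fitted with limma 3.58.1 in R 4.3.3 (lmFit, eBayes over all probe sets, two-sided); genes were read at the brightest probe set and p-values adjusted over all genes. The fit was tested on simulated data. The members, the 13 other gene lists and the tests were chosen with earlier results of these data known. All 35 members are reported; from other lists, up to 4 called genes by size, or the 2 with the smallest p. Alternatives are given in the closing section.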

Additional observations from a re-analysis of the deposited data

Results flagged for a closer look

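In 4 of the 70 sets of 4 arrays examined (35 genes, each in both genotypes), 1 array lay far from the other 3 by Dixon's test, and chance marks about 1 in 20. Plvap read 9.52 in wild-type 28, against 9.89 to 9.93 in the other wild-type arrays. Vegfc read 7.66 in wild-type 6, against 8.01 to 8.08 in the other wild-type arrays. In GR-null 17, Aqp1 read 11.15, against 10.83 to 10.86 in the other GR-null arrays, and Angpt1 read 6.64, against 5.50 to 5.58.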

How the results depend on the processing

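With 4 arrays a group, calls turned on single arrays. Leaving out 1 array gave 79 to 1640 called genes in all, against 539, with 0 to 3 blood vessel, 0 to 1 lymphatic and 0 to 2 pericyte genes, against 1, 1 and 0. Vwf ranged from -1.32 to -0.89 and Lyve1 from -0.81 to -0.67. Array quality weights gave 1944 genes, with 3, 2 and 2 in the vascular groups. Beside Vwf and Lyve1, these were Tie1, Arap3, Pdpn, Cspg4 and Des, all lower (limma adjusted p = 0.0357, 0.0325, 0.0397, 0.0183 and 0.0166). GR-null 17 had the lowest of the weights, at 0.47. The 3 arrays per group with high Y-linked transcripts, an alternative added after seeing the data, gave 1715, with 3, 2 and 2. Averaging a gene's probe sets gave 884, with 2 blood vessel and 2 lymphatic genes, and the muscle covariate 80, with 0 and 0. The averaging added Arap3, lower at -0.40 (limma adjusted p = 0.0222), and Flt4, which was higher in GR-null skin at 0.33 (0.0443). Vwf and Lyve1 kept their calls with the trended robust prior, array weights, further quantile normalization, without dim probe sets, with the mean of probe sets, without _x_at and _s_at probe sets, with the Y-linked covariate, over all probe sets and in the 3 arrays per group. No paired analysis was possible because the genotypes share no label numbers.

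Genes without a call changed sign as follows; the cause was not tested. Leaving out 1 array, the log2 fold change ranged from -0.20 to 0.053 for Cdh5, -0.17 to 0.052 for Flt1, -0.031 to 0.070 for Eng, -0.18 to 0.00055 for Emcn, -0.14 to 0.010 for Esam, -0.010 to 0.13 for Sox7, -0.0087 to 0.19 for Erg, -0.0099 to 0.16 for Aqp1, -0.30 to 0.14 for Angpt1, -0.11 to 0.14 for Notch3 and -0.13 to 0.044 for Abcc9. With the mean of all probe sets it was 0.34 for Cdh5, -0.089 for Eng, 0.056 for Sox17, -0.030 for Sox7, 0.088 for Angpt1, 0.011 for Vegfc and 0.32 for Abcc9. Without _x_at and _s_at probe sets it was 0.019 for Egfl7, 0.35 for Sox17, 0.28 for Vegfc and 0.29 for Abcc9. With the muscle covariate it was 0.060 for Cdh5, 0.21 for Flt1, -0.012 for Eng, -0.053 for Erg, 0.026 for Fli1, 0.072 for Plvap, 0.81 for Angpt1 and 0.054 for Vegfc. In the 3 arrays per group it was 0.029 for Cdh5, 0.020 for Esam, -0.058 for Sox7, -0.043 for Flt4 and -0.072 for Notch3.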

Other observations

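Other cell types of the skin sample were read from their own marker lists, against 1.56% of all genes called lower and 1.4% called higher. Of 11 erythroid markers, 1 fell and 0 rose: the embryonic globin gene Hbb-y read 7.07, 7.10, 6.40 and 6.83 in GR-null arrays, against 8.82, 9.36, 8.94 and 7.71 in wild-type arrays, and fell by 1.86 ± 0.32 log2 (limma adjusted p = 0.0241). Of 12 fibroblast markers 0 passed the threshold (limma; 3 higher and 2 lower at an unadjusted p below 0.05), with Pi16, a marker of perivascular and fascial fibroblasts, at -1.90 ± 0.55 (adjusted p = 0.0949) and Col1a1 at -0.30 (adjusted p = 0.101). Pi16 read 9.21 in GR-null 5 and 6.39 to 7.45 in the other GR-null arrays, against 8.61 to 9.74 in wild-type arrays. Of 7 adipocyte markers 0 passed (limma; 0 higher and 1 lower at an unadjusted p below 0.05), with the lipase Lipe at -0.80 (adjusted p = 0.0623) and the fat cell regulator Pparg at 0.40 (adjusted p = 0.426), and the list mean ranged from 8.03 to 9.79 in GR-null arrays, against 7.92 to 9.90 in wild-type arrays. The muscle markers that fell were Actn2 by 0.75 ± 0.15, Tnnt1 by 0.67 ± 0.10 and Myh3 by 0.55 ± 0.09 log2 (limma adjusted p = 0.0395, 0.0167 and 0.0234). The basal keratinocyte markers that rose were Trp63 by 0.60, Col17a1 by 0.59 and Lama3 by 0.56 (limma adjusted p = 0.0372, 0.0408 and 0.0337).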
